A study of Mus musculus with 7 samples.

Results

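The replication-dependent histone genes of the mouse were examined in ATAC-seq data of young and aged liver. They were taken as the GENCODE M21 genes whose symbol begins with Hist1h, Hist2h, Hist3h or Hist4h. This gave 70 genes, of which 67 are protein-coding and 3 are pseudogenes. A consensus region was assigned to a histone gene when it came within 200 bp of any of its transcription start sites (TSSs). With this rule, 58 of the 70 genes had a promoter region, and because neighbouring genes often share a region the 58 genes correspond to 37 regions of the 55680 in the data set. Across all genes, 15422 regions lay at a promoter. The 37 regions comprised 18 with 1 histone gene, 17 with 2 and 2 with 3.

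In ATAC-seq a transposase inserts adapters into exposed DNA, and the number of reads in a region measures its accessibility. The libraries came from bulk liver of male C57BL/6N mice, for which the labels give no allele or treatment, in 3 samples aged 3 months (young) and 4 samples aged 18 months (aged). Per the deposited design text, the aged samples come from 3 animals, 1 of which was sampled in 2 lobules. The authors' methods instead count the 4 aged samples as biological replicates. Which samples would share an animal is not given, so that p-values measure the spread between samples. The counts in regions summed to between 4474652 and 25461110 per library, and they were expressed as CPM, counts relative to the library size times a TMM factor of 0.936 to 1.07. Age groups were tested with edgeR's quasi-likelihood method and Benjamini-Hochberg adjustment over all 55680 regions, and a region was called at an adjusted p under 0.05. Among marker genes of liver cells, 6 of 6 of hepatocytes had a promoter region, while 0 of 5 lymphocyte genes and 1 of 4 Kupffer cell genes did, the last at 2.39 CPM in young and 1.58 CPM in aged liver, and 5 of the 9 markers of endothelium, stellate cells and cholangiocytes had one.

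Replication-dependent histone genes supply the core histones H2A, H2B, H3 and H4, which form the nucleosome, and the linker histone H1, which binds the DNA between nucleosomes. They are transcribed mainly in S phase, when newly made DNA must be packaged, and lie together in clusters around which the factor NPAT assembles the histone locus body. The genes lack introns, and their mRNAs end in a stem-loop bound by SLBP in place of a poly(A) tail. Each protein is encoded by many gene copies, and most cells of an adult liver are not in the cell cycle.

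Genes were grouped into physical clusters wherever neighbouring TSSs were more than 100 kb apart. The 10 genes on chromosome 3 span 49.9 kb from 96219865 to 96269752 (GRCm38) and have 5 regions. Chromosome 6 holds Hist4h4 alone, with 1 region, and chromosome 11 holds 3 genes from 58948920 to 58954685, also with 1 region. The other 56 genes lie on chromosome 13. Subcluster 1, from 21716143 to 21833743 (118 kb), has 19 genes and 10 regions. Subcluster 2, from 22035568 to 22043214, has 5 genes and 3 regions, and subcluster 3, from 23531050 to 23763666 (233 kb), has 29 genes and 17 regions. The Hist1h2aa and Hist1h2ba pair at 23.9 Mb and the pseudogene Hist1h2al at 51.2 Mb had no region. Of the 12 genes without a region, 5 belong to subcluster 1 (Hist1h3h, Hist1h2bq, Hist1h2ao, Hist1h2ap and Hist1h2br), 3 to subcluster 3 (Hist1h1d, Hist1h3d and Hist1h1t) and 1 to chromosome 11 (Hist3h2ba). The nearest region lay between 565 bp (Hist1h3h) and 25195 bp (Hist1h2al) from their TSSs.

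Short promoter sequences of a few members are printed so that copies can be compared. RefSeq promoter windows (GRCm38.p6, 250 bases before to 50 bases after the TSS) were matched by position to 61 of the 70 genes. The following runs of 30 bases lie upstream of the RefSeq start. The first 3 show the H1 box, an element of H1 promoters, in capitals (AAACACA), for the H1 gene of subcluster 1 and 2 H1 genes of subcluster 3. The next 3 show the TATA motif in capitals (TATAAA) at 2 H4 genes of subcluster 1 whose regions both fell and at Hist1h4i, an H4 gene of subcluster 2 whose region did not pass the test. These matches begin 128, 127 and 137 bases upstream of the RefSeq start. At Hist1h4k, whose run is not printed, the match begins 16 bases upstream. The next 2 show the octamer in capitals (ATTTGCAT), a motif bound by OCT1 in H2B promoters, at genes of subclusters 1 and 2 whose regions did not pass the test. The last 2 show the CCAAT motif in capitals at 2 H3 genes.
Hist1h1b (chr13:21780725-21780754, minus strand): ttggggactaacAAACACAatttgggattg
Hist1h1c (chr13:23738683-23738712, plus strand): gtgaagtgtaacAAACACAagttgggcgca
Hist1h1e (chr13:23622656-23622685, minus strand): ttgaggtgtaacAAACACAactccgcatct
Hist1h4m (chr13:21811606-21811635, plus strand): gcttcctttccaTATAAAaacctattgtgt
Hist1h4n (chr13:21832307-21832336, minus strand): gcttcctttccaTATAAAaacctattgtgt
Hist1h4i (chr13:22041482-22041511, minus strand): aacttgttcttaTATAAAatgaatgagccg
Hist1h2bm (chr13:21722008-21722037, plus strand): ctctcgtctctATTTGCATaacagcgtgta
Hist1h2bk (chr13:22035780-22035809, plus strand): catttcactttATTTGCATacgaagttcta
Hist1h3i (chr13:21783437-21783466, minus strand): agcagtttactgtCCAATccaaaagggtgg
Hist1h3e (chr13:23562423-23562452, minus strand): tgctggccagaatCCAATcagagcgacgca

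The runs of Hist1h4m and Hist1h4n did not differ in any base. The runs of Hist1h1b and Hist1h4m lie outside the accessible regions of these genes, and that of Hist1h4n overlaps its region only at the 3′ end, and the other runs lie within the regions of their genes. On either strand of the windows, TATAAA was present in 34 of 61 histone genes (55.7%) against 13.6% of 32851 promoters, and CCAAT in 52 of 61 (85.3%) against 37.4%. ATTTGCAT was present in 13 histone genes (21.3%) against 1.74% of promoters, and AAACACA in 8 (13.1%) against 7.18%, among them 4 of 5 H1 genes. In subcluster 1, TATAAA was found in 11 of 18 genes, CCAAT in 14, AAACACA in 2 and ATTTGCAT in 1, which was Hist1h2bm. In the 43 genes of the other clusters the counts were 23, 38, 6 and 12. These are matches of letters in a window and do not show binding. The letters of the 4 motifs do not contain one another.

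Of the 37 histone promoter regions, 9 fell in aged liver and 1 rose, and all 9 that fell lie in subcluster 1 of chromosome 13. With a promoter window of 1000 bp in place of 200 bp, a region on chromosome 3 was also called lower. Over all regions, 3.3% were called lower and 2.44% higher in aged liver, and over promoter regions 2.06% were called lower and 4.48% higher. These shares depend on the fit. Of the 3198 regions called, 1838 were lower, against 1931 of 4691 with DESeq2, 2047 of 5660 with offsets on GC content and 2931 of 3474 with total counts. Leaving out 1 library gave between 188 called regions (without young replicate 1) and 4230 (without aged replicate 4). The median log2 fold change (aged over young) of the 37 regions was -0.03, beside -0.04 for all regions and 0.09 for all promoter regions. In subcluster 1 it was -1.57, with values from -2.22 to -0.52, and in the other 27 histone regions it was 0.15, with values from -0.65 to 0.43. In 11 of the 37 regions every aged sample lay below every young sample, which held for 11.6% of all regions, and 10 of these 11 were the 10 regions of subcluster 1. In 3 of the 37, every aged sample lay above every young sample, against 10.2% of all regions. The contrast between subclusters was not itself tested, because the genes were chosen with these results known. In a bulk sample, fewer cells of a type with these sites open and less accessibility per cell cannot be told apart.

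**Figure D1:**
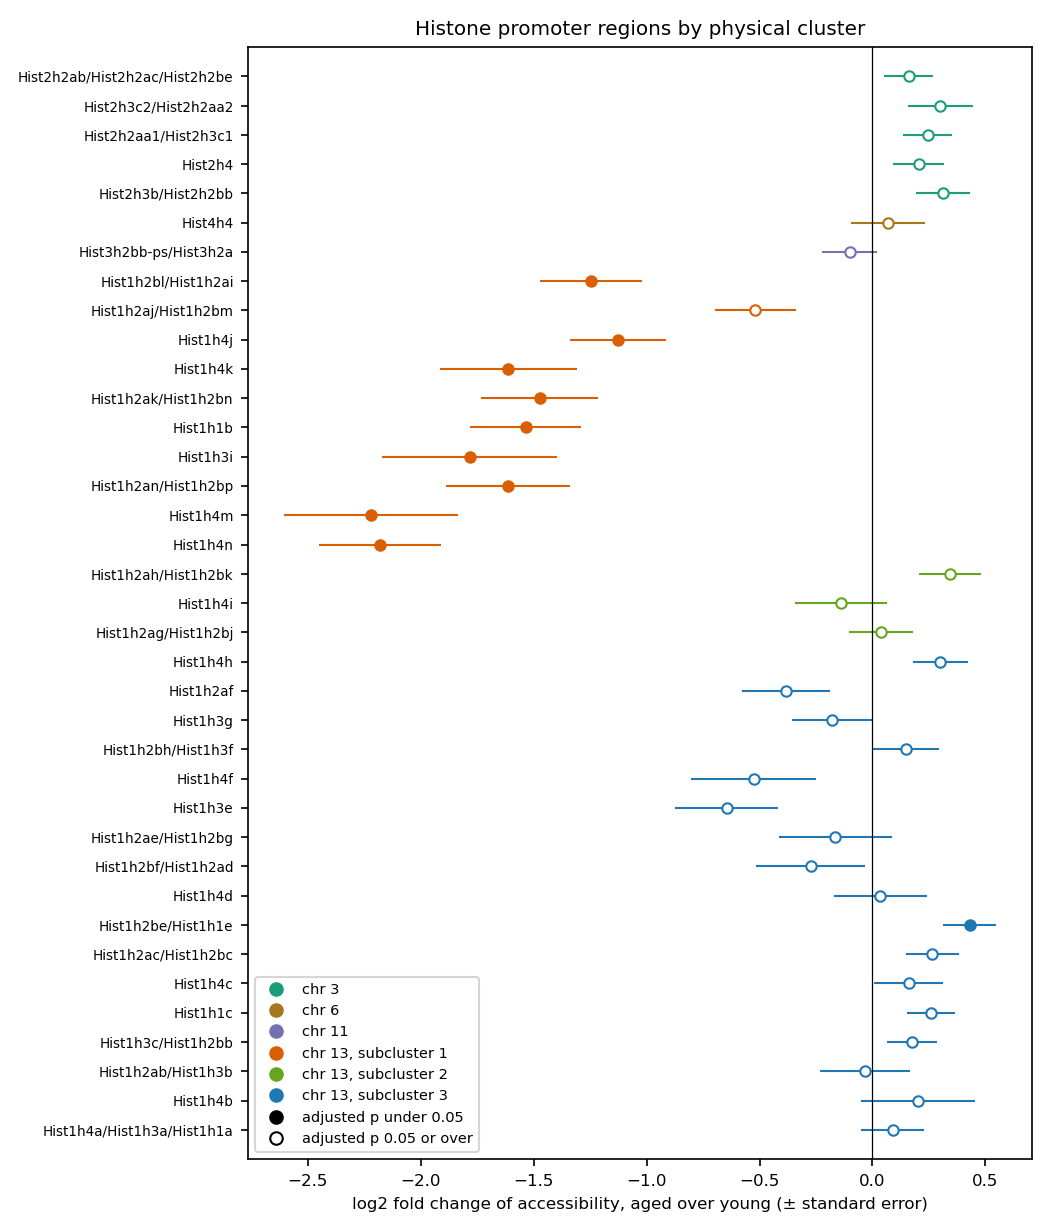
Log2 fold change of accessibility (aged over young, x axis) with its standard error at each of the 37 histone promoter regions, in genome order within each cluster. Filled points passed an adjusted p of 0.05 in edgeR's quasi-likelihood test. The filled points on the left are the 9 called regions of subcluster 1, at -2.22 to -1.13, and the filled point on the right is Hist1h2be/Hist1h1e at 0.43.

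The largest decreases in subcluster 1 were at genes of H4, the core histone that pairs with H3. At Hist1h4n (chromosome 13, 21831299 to 21832310) young libraries had 10.3, 12.6 and 8.55 CPM and aged libraries 2.02, 3.53, 2.34 and 1.78 CPM. The age groups did not overlap, and aged liver had 23.1% of the young mean, a change (log2, aged over young) of -2.18 (standard error, SE 0.27, edgeR adjusted p = 0.00417). At Hist1h4m (21811879 to 21812779) the values were 3.98, 4.69 and 6.08 CPM in young and 0.527, 0.981, 2.10 and 1.02 CPM in aged liver, a log2 change of -2.22 (SE 0.39, edgeR adjusted p = 0.0110). Every aged value was below every young one, on 5 to 9 counts per aged library. The region of Hist1h4m begins 133 bp from the annotated TSS, so that it was assigned through the window and not through the start itself.

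The other H4 regions of subcluster 1 fell less. Hist1h4k (21750073 to 21750809) had 5.92, 4.54 and 4.77 CPM in young and 1.49, 1.57, 2.57 and 1.27 CPM in aged liver, a log2 change of -1.61 (SE 0.30, edgeR adjusted p = 0.0135). Hist1h4j (21734023 to 21735521) had 14.5, 11.1 and 11.2 CPM in young and 6.33, 6.47, 4.67 and 4.84 CPM in aged liver, a log2 change of -1.13 (SE 0.21, edgeR adjusted p = 0.0135). Both separated the age groups, and Hist1h4j was the smallest decrease among the called regions.

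The linker histone gene Hist1h1b, which encodes H1.5, has the only H1 promoter in subcluster 1. Its region (21779141 to 21780654) held 13.2, 11.7 and 7.73 CPM in young and 3.78, 2.94, 3.73 and 4.58 CPM in aged liver. The lowest young library, replicate 3, was above the highest aged one, and the log2 fold change was -1.53 (SE 0.25, edgeR adjusted p = 0.00896). Hist1h3i, the only H3 gene of the subcluster with a region (21783069 to 21783494), had 5.55, 3.97 and 3.45 CPM in young and 1.23, 0.981, 2.57 and 0.636 CPM in aged liver. It fell by 1.78 on the log2 scale (SE 0.39, edgeR adjusted p = 0.0212), on 5 to 14 counts per aged library.

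Genes for H2A and H2B, which form a dimer in the nucleosome, mostly lie head to head and share a promoter region. Of the 4 such pairs with a region in subcluster 1, 3 fell. Hist1h2an/Hist1h2bp (21786891 to 21787821) had 13.98, 11.8 and 9.37 CPM in young and 3.87, 2.16, 6.07 and 3.56 CPM in aged liver, a log2 change of -1.62 (SE 0.27, edgeR adjusted p = 0.0110). Hist1h2ak/Hist1h2bn (21753317 to 21754609) went from 8.76 ± 0.824 (SD, n = 3) to 3.24 ± 1.03 CPM (SD, n = 4), with a log2 change of -1.47 (SE 0.26). For this pair the adjusted p from edgeR was 0.0111, and at Hist1h2bl/Hist1h2ai (21715833 to 21717094) it was 0.0121. The latter had 12.0, 10.5 and 11.2 CPM in young and 4.04, 3.73, 6.54 and 4.96 CPM in aged liver, a log2 change of -1.24 (SE 0.23).

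The pair Hist1h2aj/Hist1h2bm (21721479 to 21722471), whose H2A member is a pseudogene, did not pass the test. It had 13.1, 11.8 and 13.8 CPM in young and 8.61, 9.81, 9.81 and 7.89 CPM in aged liver. The groups did not overlap, and the log2 fold change was -0.52 (SE 0.18, edgeR adjusted p = 0.0968). It is the region of subcluster 1 with the highest level per length in young liver, at 12.99 CPM per kb, where the called regions had 5.46 to 12.6 CPM per kb. Its H2B gene is also the only one of the subcluster with ATTTGCAT in its window, as printed above. Elsewhere, uncalled regions include H2B genes with the motif (Hist1h2bk) and without it (Hist1h2bj), and its part in the changes was not tested.

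**Figure D2:**
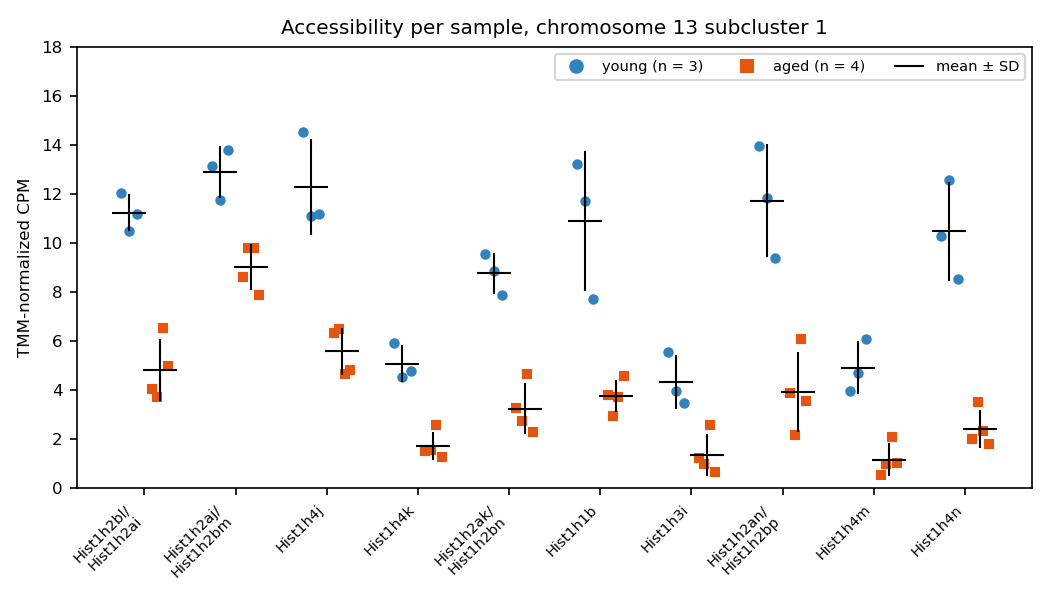
TMM-normalized CPM (y axis, linear from 0) of each young (circles, n = 3) and aged (squares, n = 4) library at the 10 promoter regions of chromosome 13 subcluster 1, in genome order, with the mean and SD. In all 10 regions the lowest young library is above the highest aged one, and the gap is smallest in proportion to the level at Hist1h2aj/Hist1h2bm and Hist1h3i.

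These calls rest on few counts, 5 to 98 per aged and 21 to 333 per young library across the 10 regions. Without young replicate 1 only 2 of the 9 remained called, Hist1h4n and Hist1h4m, while it was 7 without young replicate 2, 6 without aged replicate 1 and 9 without any other library. The log2 fold changes of the 9 stayed between -2.58 and -0.98 in every alternative fit. Peaks shared by 2 or more libraries entered the consensus set, so a weak region could enter through young libraries alone, which was not checked.

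The 3 regions of subcluster 2, the next along the chromosome, did not pass the test in either direction. Hist1h2ah/Hist1h2bk was called higher with offsets on GC content and when aged replicate 4 was left out. Hist1h2ah/Hist1h2bk, which had the most reads (22034284 to 22036410), had 42.9, 41.5 and 49.2 CPM in young and 56.7, 60.6, 65.1 and 43.5 CPM in aged liver, a log2 change of 0.34 (SE 0.14, edgeR adjusted p = 0.145). Aged replicates 1 to 3 were above all young libraries, and aged replicate 4 was within their range. Hist1h4i (22040677 to 22041565) had 18.1, 17.7 and 18.4 CPM in young and 18.0, 20.6, 17.3 and 10.2 CPM in aged liver, a log2 change of -0.14 (SE 0.20). At this gene aged replicate 4 was the lowest of the 7 libraries. Hist1h2ag/Hist1h2bj had a log2 change of 0.04.

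In subcluster 3, 1 of 17 regions rose and none fell in the main test. With offsets on GC content 3 of the 17 were called higher, Hist1h2be/Hist1h1e, Hist1h1c and Hist1h4h. The region that rose holds the start of Hist1h1e, which encodes the linker histone H1.4, and of Hist1h2be (23620778 to 23622782). It had 53.3, 59.8 and 64.1 CPM in young and 80.9, 77.7, 90.1 and 69.9 CPM in aged liver, with no overlap, a log2 change of 0.43 (SE 0.12, edgeR adjusted p = 0.0483). The adjusted p ranged from 0.0139 to 0.561 over the alternatives, and the call was lost without young replicate 1 or 2, or without aged replicate 1, 2 or 3 (adjusted p from 0.0592 to 0.176 from edgeR). Since 2 aged samples share an animal by the design text, each pair of aged samples was also summed into 1. In 4 of the 6 pairings the region was no longer called (adjusted p from 0.0653 to 0.116 from edgeR). With offsets that remove the trend with mean abundance its log2 fold change was 0.16.

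The largest decrease in subcluster 3 was at Hist1h3e, an H3 gene (23561737 to 23563435), with 39.5, 32.0 and 38.6 CPM in young and 27.8, 32.8, 19.8 and 13.1 CPM in aged liver. Aged replicate 2 overlapped the young range, and the log2 fold change of -0.65 (SE 0.23) had an adjusted p of 0.10 from edgeR. It was called in 1 of the 7 fits that left out a library, without aged replicate 2 (-0.83, adjusted p = 0.0470 from edgeR). In the other fits it ran from -0.76 to -0.43 with adjusted p from 0.118 to 0.253 from edgeR, and it was smallest without aged replicate 4. Hist1h4f followed with -0.53, and Hist1h2af with -0.38, where the 4 aged libraries (6.77 to 8.83 CPM) lay below the 3 young ones (9.26 to 10.9 CPM) but the adjusted p was 0.245 from edgeR. The region with the most reads, not counted per length, was Hist1h4a/Hist1h3a/Hist1h1a, with 81.9 ± 13.9 (SD, n = 3) in the young and 86.6 ± 12.2 CPM (SD, n = 4) in the aged liver, a log2 change of 0.09. Hist1h1c, which encodes the H1.2 linker histone, went from 52.3 ± 4.15 (SD, n = 3) to 62.6 ± 2.95 CPM (SD, n = 4). All its aged libraries were above the young ones, and its log2 fold change was 0.26 (SE 0.11, edgeR adjusted p = 0.152).

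On chromosome 3, all 5 regions had a log2 fold change above 0, from 0.16 to 0.31, and none passed the test. The region with the most reads was that of Hist2h2ab, Hist2h2ac and Hist2h2be (96219316 to 96221930), with 77.7, 72.9 and 84.2 CPM in young and 89.1, 81.0, 95.7 and 83.4 CPM in aged liver, a log2 change of 0.16. The largest value was that of Hist2h3b/Hist2h2bb (96268326 to 96270341), which went from 45.6 ± 5.51 (SD, n = 3) to 56.3 ± 4.48 CPM (SD, n = 4), with a log2 change of 0.31 (SE 0.12, edgeR adjusted p = 0.125). With offsets fitted on mean abundance the median of the 5 regions was 0.00 in place of 0.24, with total counts it was 0.13, and with offsets on GC content 1 of the 5, Hist2h3b/Hist2h2bb, was called higher. Hist4h4 on chromosome 6 had 31.1, 27.8 and 46.4 CPM in young and 38.4, 35.9, 38.3 and 32.5 CPM in aged liver, a log2 change of 0.07. The region of Hist3h2a and the pseudogene Hist3h2bb-ps on chromosome 11 had 43.3 ± 5.50 (SD, n = 3) in the young and 40.3 ± 2.90 CPM (SD, n = 4) in the aged liver, a log2 change of -0.10. The age groups overlapped at both.

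Aged replicate 4 stood apart from the other aged libraries in subclusters 2 and 3. It was the lowest aged library in 15 of 17 regions of subcluster 3 and in 3 of 3 of subcluster 2, whereas on chromosome 3 it was lowest in 1 of 5 and over all regions in 29.8%. At Hist1h2ae/Hist1h2bg it had 10.3 CPM, where the other aged libraries had 26.1 to 28.0 CPM and the young ones 23.97 to 28.0 CPM. The median of the 17 regions, as log2 CPM relative to the young mean, was 0.22, 0.14 and 0.15 in aged replicates 1 to 3 and -0.41 in replicate 4. In subcluster 1 the same measure was -1.49, -1.59, -0.92 and -1.74 in the 4 aged libraries, and between -0.13 and 0.17 in the young ones. Aged replicate 3 was thus the closest to young in subcluster 1, and replicate 4 the farthest. Without aged replicate 4 the median log2 fold change was 0.22 in subcluster 3 and -1.51 in subcluster 1, where the same 9 regions were called.

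**Figure D3:**
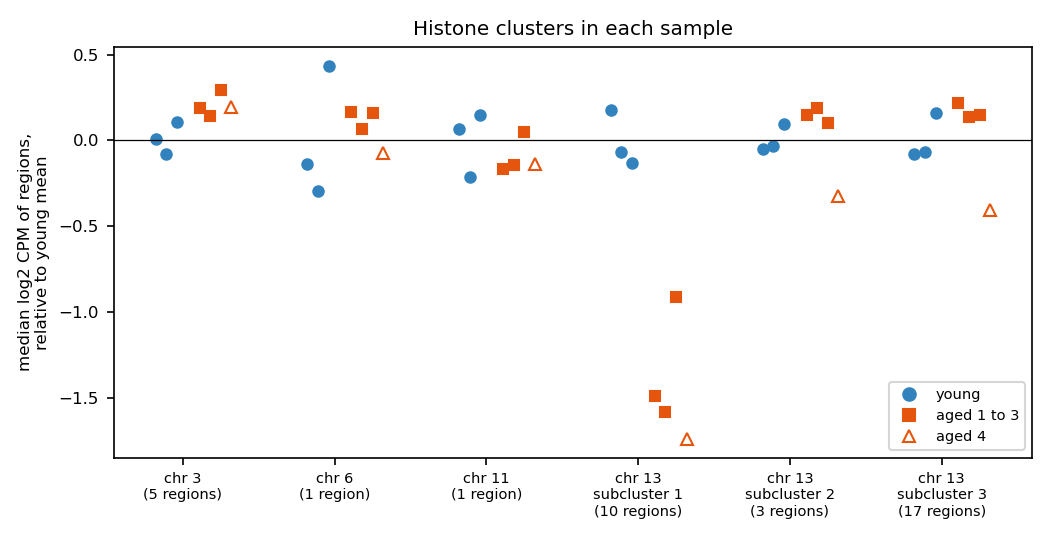
Median log2 CPM over the promoter regions of each histone cluster in each library, relative to the mean of the 3 young libraries (y axis). Circles are young, filled squares aged replicates 1 to 3 and open triangles aged replicate 4. The aged libraries lie at -0.92 to -1.74 in subcluster 1, and aged replicate 4 lies below the other libraries in subclusters 2 and 3.

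By histone class, the calls followed the subcluster. Of the regions in subcluster 1, all 4 with an H4 gene, the 1 with an H1 gene and the 1 with an H3 gene fell, as did 3 of the 4 that an H2A and an H2B gene share. Outside it, 0 of 9 H4, 0 of 3 H1, 0 of 9 H3, 0 of 11 H2A and 0 of 11 H2B regions were called lower. Their median log2 fold changes were 0.09 for H4, 0.26 for H1, 0.15 for H3, 0.04 for H2A and 0.16 for H2B. Within subcluster 1 the median was -1.90 over the 4 H4 regions and -1.36 over the 4 shared by H2A and H2B. The H4 regions are not independent, as 58.9% of the Hist1h4m region matches that of Hist1h4n at 99.8% identity. Hist1h4m and Hist1h4k were also weaker in young liver (4.92 and 5.08 CPM) than the shared regions (8.76 to 12.9 CPM), and Hist1h4j and Hist1h4n lay within that range. No H2A or H2B region in subcluster 1 belongs to a single class, so the values of these classes there are the same regions counted for both.

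The regions of subcluster 1 were also the least accessible histone promoters in young liver. Per length, their median was 8.55 CPM per kb (range 5.46 to 12.99), against 20.3 in subcluster 2, 23.2 in subcluster 3 (range 13.7 to 37.8), 22.6 on chromosome 3, 23.0 on chromosome 6 and 27.9 on chromosome 11. They were shorter, at 426 to 1514 bp with a median of 1002.5 bp, than the other histone regions with a median of 1711 bp. In mean level over the libraries they lay between percentiles 5.26 and 56.3 of all regions, and the regions outside between 49.4 and 97.4. Over the 37 regions the Spearman correlation of log2 fold change and mean CPM was 0.88, and over the 27 outside subcluster 1 it was 0.71. Mean CPM and these percentiles include the aged libraries, so a region that falls also gets a lower mean level. The correlations and the percentiles therefore partly restate the change. The regions also share libraries and neighbours, so this is a description.

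A change with level was also present in the whole data set. When all regions were split into 20 equal groups by mean level, the median log2 fold change went from -0.45 in the weakest group to 0.32 in the strongest. This mean level also includes the aged libraries. In the groups that hold subcluster 1, at 2.19 to 12.2 mean CPM, that median was between -0.33 and -0.06. The histone regions outside subcluster 1 with young levels no higher than the maximum within it were Hist1h2af, Hist1h4f and Hist1h2bf/Hist1h2ad, with log2 fold changes of -0.38, -0.53 and -0.27. With offsets fitted on mean abundance, 7 of the 9 decreases were called (all but Hist1h3i and Hist1h4k), and the median of subcluster 1 was -1.31.

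**Figure D4:**
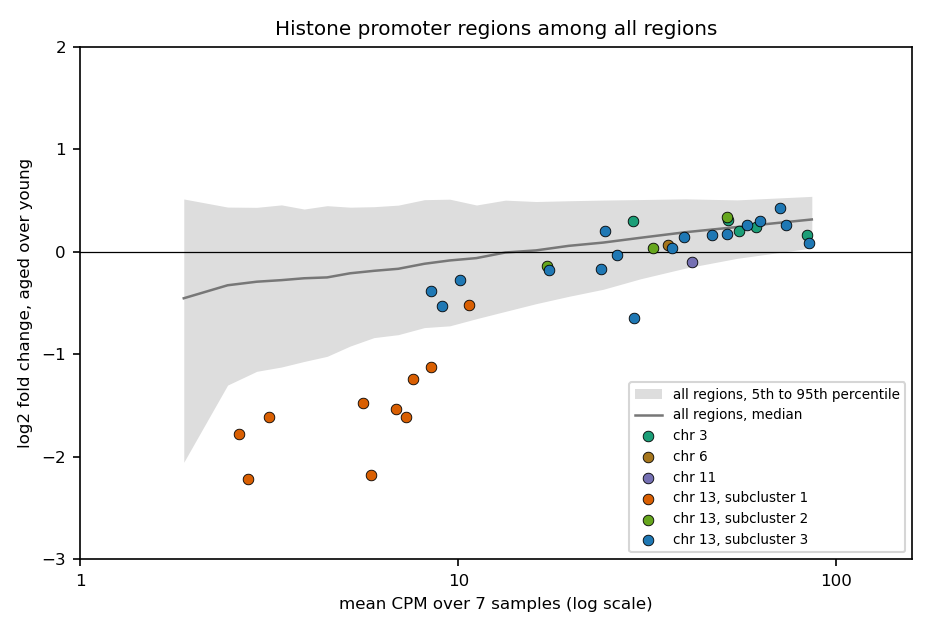
Log2 fold change (aged over young, y axis) against mean CPM over the 7 libraries (x axis, log scale) for the 37 histone promoter regions, coloured by cluster. The grey line and band are the median and the 5th to 95th percentile of all regions in 20 groups of mean CPM. The 9 called regions of subcluster 1 and Hist1h3e lie below the band, and the other histone regions lie within it.

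Histone genes resemble one another, and the authors kept only reads of sufficient mapping quality, so the share of each region that occurs elsewhere was measured. In subcluster 1, a median of 52.3% of the 31-base words of a region occurred elsewhere in the genome, against 29.6% in subcluster 3 and 19.99% on chromosome 3. The share was 92.0% at Hist1h4n and 94.4% at Hist1h4m, and the best match, over 58.9% of the Hist1h4m region, lies within that of Hist1h4n at 99.8% identity. Hist1h1b, with 2.09% of its words repeated and no aligned second place, fell by 1.53 on the log2 scale. Outside subcluster 1, the 4 regions with 50% or more of repeated words had log2 fold changes from -0.38 to 0.30, and the highest value was that of Hist2h3c2/Hist2h2aa2 with 84.5%. The regions of Hist1h4k and Hist2h3c2/Hist2h2aa2 have a near-identical copy elsewhere. When the 24 histone regions with 25% or more of repeated words were left out, an alternative chosen after the data were seen, Hist1h1b was the only region of subcluster 1 that remained, and it was the 1 of the remaining 13 called lower, which says nothing of the other 8 regions that fell. Over the 37 regions the Spearman correlation of log2 fold change and the share of repeated words was -0.51, and over the 27 outside subcluster 1 it was -0.295. The part of repeated sequence in the decreases was not tested.

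**Figure D5:**
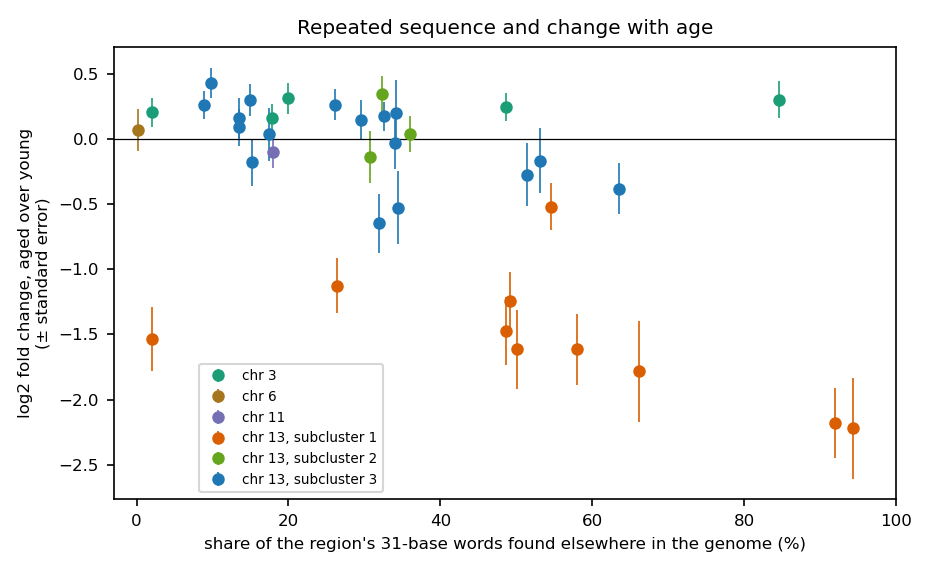
Log2 fold change with its standard error (y axis) against the share of the 31-base words of a region that occur elsewhere in the genome (x axis, %) for the 37 histone promoter regions, coloured by cluster. Hist1h1b is the point at 2.09% and -1.53, and the point on chromosome 3 at 84.5% lies at 0.30.

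Other consensus regions near the clusters were compared in the same fit. No region without a histone TSS lies inside subcluster 1. Among 4 regions within 100 kb of its ends, a margin chosen after the data were seen, none was called. Their log2 fold changes ran from -1.05 to 0.43, with a median of -0.52. The lowest, at 21918821 to 21920322, went from 12.5 ± 2.08 (SD, n = 3) to 6.09 ± 2.42 CPM (SD, n = 4), with an adjusted p of 0.0513 from edgeR and with aged replicate 4 lowest at 2.55 CPM. The other clusters had 5 to 18 regions each within 100 kb, with median log2 fold changes from -0.30 to 0.18. Of these regions 1 was called, as against 3.3% lower and 2.44% higher over all regions. It was 1 of 6 beside Hist4h4 on chromosome 6, at the promoter of Gucy2c (136781564 to 136781796), which went from 2.37 ± 0.123 (SD, n = 3) to 0.662 ± 0.180 CPM (SD, n = 4), with a log2 change of -1.74 (edgeR adjusted p = 0.0199). Inside subcluster 3, 10 such regions had log2 fold changes with a median of 0.16. The only one called, at 23728941 to 23731737, rose from 53.6 ± 1.53 (SD, n = 3) to 71.7 ± 6.36 CPM (SD, n = 4), with a log2 change of 0.42 (adjusted p = 0.0404 from edgeR). The promoter of Hfe, a regulator of iron uptake that lies among the histone genes of subcluster 3, had a log2 change of 0.19. On chromosome 3 the 1 inside region, at 96238073 to 96238574, fell from 6.52 ± 0.783 (SD, n = 3) to 2.53 ± 1.13 CPM (SD, n = 4), with a log2 change of -1.26 (adjusted p = 0.0313 from edgeR). It overlaps the end of the gene Hist2h3c2 (96238108 to 96239127, minus strand), but not the window around its start.

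Genes that act with the replication-dependent histones were counted in 4 lists, beside 2.06% of promoter regions called lower and 4.48% called higher, and with so few members the counts are near that background. Of 17 factors that transcribe histone genes or process their mRNAs, 0 fell and 1 rose, and the median log2 fold change was 0.32. The one that rose was Lsm10, a subunit of the U7 particle that cuts histone pre-mRNA, from 25.5 ± 3.59 (SD, n = 3) to 35.5 ± 0.733 CPM (SD, n = 4), with a log2 change of 0.47 (adjusted p = 0.0484 from edgeR). Npat had 0.33 and Slbp 0.41, with adjusted p of 0.138 and 0.0683 from edgeR. Of 9 histone chaperones 0 fell and 1 rose, Asf1b, which hands H3 and H4 to assembly factors, with a log2 change of 0.57 (adjusted p = 0.0424 from edgeR), and the list had a median of 0.21. Of 20 S phase genes 0 fell and 1 rose, Pcna, the clamp of the replication fork, with 0.42 (adjusted p = 0.0402 from edgeR) and a list median of 0.14. Of 11 replication-independent histone genes, which are expressed outside S phase, 9 had a region, 0 were called and the median was 0.24. Young levels in the 4 lists ran from 6.01 CPM (Gon4l) to 111 CPM (Sympk), a span over which the median change of all regions went from below to above 0.

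Markers of liver cell types were read in the same way. Of the 6 hepatocyte markers 1 rose, Apoa1, an apolipoprotein of high-density lipoprotein, with a log2 fold change of 0.53, and the median of the 6 was 0.27. The others were not called and had values from -0.02 (Tat) upward, such as 0.13 at Alb and 0.25 at Hnf4a. The summed level of the 6 was 489 to 567 CPM in young and 613 to 734 CPM in aged libraries, with the largest part from Apoa1, which went from 187 to 271 CPM. None of the markers of other cell types was called. The 2 of 3 sinusoidal endothelium markers with a region summed to 49.7 to 52.4 CPM in young and 39.8 to 66.8 CPM in aged libraries, with log2 fold changes of 0.05 at Stab2 and -0.35 at Kdr. Of 3 stellate cell markers 1 had a region, Lrat (-0.23), with 2.87 to 4.04 CPM in young and 2.55 to 3.69 CPM in aged libraries. Of 3 cholangiocyte markers 2 had a region, and they summed to 41.7 to 49.5 CPM in young and 36.7 to 54.3 CPM in aged libraries. At Epcam, one of these, every aged library was below every young one, and the log2 fold change was -0.77 (edgeR adjusted p = 0.116), while Sox9 had -0.05. The Kupffer cell gene with a region, Clec4f, had 2.22 to 2.65 CPM in young and 0.588 to 2.80 CPM in aged libraries, with a log2 fold change of -0.66. The part of cell composition in the histone results was not tested.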

How the data were processed

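The authors deposited raw counts per consensus region and library, without normalization. Per their methods, the authors trimmed reads (cutadapt 1.13), aligned them to GRCm38 (Bowtie2 2.4.1), kept properly paired reads above a mapping quality threshold, discarded duplicate and mitochondrial reads, called peaks (MACS2 2.2.7), dropped blacklisted ones and ran featureCounts on the peaks shared by 2 or more libraries. All 7 columns were matched to samples by name, and 0 columns were left unused.

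Counts were tested with edgeR 4.0.16 (R 4.3.3), with TMM normalization, age as the only factor and no filter. The fit was tested on simulated data. CPM used TMM-scaled library sizes, and log2 CPM a prior count of 2. The pipeline ran in Python 3.11.15 with pysam 0.24.0, minimap2 2.31 and matplotlib 3.10.9. Regions with a second alignment of 95% identity or above over 80% of their length were called near-identical copies. Repeated words were counted over both strands of the GRCm38 chromosomes.

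Histone genes, gene lists and tests were chosen with earlier results of these data known. Regions named are those called, those with the highest mean CPM, the largest and the smallest log2 fold change in each cluster, the highest mean CPM in each class and the 2 with the lowest adjusted p above 0.05 (0.0968 and 0.10). Others, such as Hist1h2af and Hist1h1c, were named after their values were seen. The smallest chi-square per degree of freedom between libraries of 1 age was 2.47, so no library was a duplicate. Replicate numbers did not pair the samples (correlations of deviations -0.12, 0.06 and 0.03). Alternatives were DESeq2 1.42.0, limma 3.58.1 (voom), total counts, offsets from loess fits (span 0.3) on GC content or mean abundance, filters on low counts, thinning, leaving out each sample, summing aged pairs, a replicate block, a threshold of 0.01, wider promoters, gene starts only, a gap of 500 kb and a prior count of 0.5.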

Additional observations from a re-analysis of the deposited data

Results flagged for a closer look

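The 4 aged libraries were examined for a library far from the others at each of the 37 histone promoter regions. Of the 37 regions 3 had one, which is near the rate of about 1 in 20 that chance gives. At Hist1h2ae/Hist1h2bg in subcluster 3 of chromosome 13, aged replicate 4 was low at 10.3 CPM, with the other aged libraries at 26.1, 26.5 and 28.0 CPM and young libraries at 23.97 to 28.0 CPM. At Hist1h2ag/Hist1h2bj in subcluster 2, aged replicate 4 was low at 25.7 CPM, with 34.6, 35.8 and 36.7 CPM in the others and 29.5 to 34.4 CPM in young libraries. At Hist3h2bb-ps/Hist3h2a on chromosome 11, aged replicate 3 was high at 44.6 CPM, with 38.4, 39.0 and 39.1 CPM in the others, inside the young range of 37.2 to 47.7 CPM.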

How the results depend on the processing

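The count of lower histone regions was 9, and 2 at a threshold of 0.01 (Hist1h4n and Hist1h1b) and 1 without regions with 25% or more of repeated words. It was 10 with promoters widened to 1000 bp, which added the region inside the chromosome 3 cluster (96238073 to 96238574). Leaving out 1 library at a time gave 2 to 10. The count of higher regions was 1 and is not stable. It was 0 with 10 counts in every sample, with total counts, with offsets on mean abundance, without near-identical copies, at 0.01 and when aged replicates 1 and 2, 1 and 3, 2 and 3 or 3 and 4 were summed. It was 5 with offsets on GC content (Hist1h2be/Hist1h1e, Hist1h1c, Hist1h4h, Hist1h2ah/Hist1h2bk and Hist2h3b/Hist2h2bb), and 0 to 2 when 1 library was left out. With the replicate block 2 regions were higher (Hist1h2be/Hist1h1e and Hist1h2ah/Hist1h2bk) and the same 9 were lower. All 9 were called lower in 19 of the 27 alternatives. The 8 exceptions were the threshold of 0.01 (2), the fit without regions with 25% or more of repeated words (1), 10 counts in every sample (6, as the other 3 had been filtered out), offsets on mean abundance (7), the fit without near-identical copies (8, as Hist1h4k was left out) and the fits without young replicate 1 (2), young replicate 2 (7) or aged replicate 1 (6). Hist1h3e was called lower in 2, without aged replicate 2 and with aged replicates 2 and 4 summed (adjusted p = 0.0223 from edgeR).

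The median of the 37 regions lay near 0 and changed sign, from -0.16 with offsets on mean abundance to 0.12 with the replicate block. Total counts moved the median of all regions from -0.04 to -0.15, that of chromosome 3 from 0.24 to 0.13, and the medians of subclusters 2 and 3 to -0.08 and -0.03, while that of subcluster 1 was -1.69. A gap of 500 kb joined subclusters 1 and 2 into 13 regions with a median of -1.47. Depth limits the weakest regions, with 5 counts in some aged libraries. The causes of these shifts were not tested.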
